A study of Mus musculus with 8 samples.

Results

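The endothelial nuclei of the 6-month mouse brain were those that the authors' annotation of all nuclei names endothelial. They numbered 1667 of 61949 nuclei (2.69%), in an experiment on myelin and amyloid. Brain hemispheres without cerebellum and olfactory bulb came from C57BL6/J mice of 4 genotypes, with 2 libraries of single nuclei each. WT mice carried neither change, Cnp-/- mice lacked the myelin protein CNP in every cell, 5xFAD mice carried human transgenes of familial Alzheimer disease that are driven in neurons, and Cnp-/-;5xFAD mice carried both. Both alleles are carried by the whole animal, and neither was made in endothelial cells alone. The study's general statement on replication has a pair of animals pooled in each single-cell replicate, while its methods for this tissue and the labels do not state the number. P-values therefore measure the spread between libraries and not between single mice, and that spread may be technical in part.

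Endothelial cells line the blood vessels. In the brain they are sealed by tight junctions of claudin-5 and occludin, take up glucose, amino acids and lipids through dedicated carriers, and pump drugs and peptides back into the blood with ABC transporters, which together form the blood-brain barrier. Wnt signals from the surrounding tissue and contact with pericytes, the mural cells that wrap capillaries, maintain that barrier. The same cells carry amyloid peptides between brain and blood and answer to interferon.

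The 8 libraries held between 119 and 288 endothelial nuclei, and between 643143 and 1401769 unique molecular identifiers (UMIs) from them, the molecules counted for a gene. The median endothelial nucleus held between 3304.5 and 3972 UMIs in a library, so the libraries were close in depth per nucleus and differed mainly in the number of nuclei. Across libraries, 24 endothelial nuclei carried a cell barcode that also occurred in another library. Levels are given as CPM, the UMIs of a gene per 1000000 UMIs of the endothelial nuclei of a library. From a summed level alone, a change in the share of nuclei that hold a gene cannot be told apart from a change within each nucleus. In mature oligodendrocytes, Cnp was at 219 to 321 CPM in the 4 libraries with the gene intact and at 23.1 to 32.8 CPM in the 4 libraries that lack it, so the libraries differed as labelled for Cnp. In endothelial nuclei the gene gave 3 to 29 UMIs a library, too few to check the labels there.

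The 3 defining markers had higher levels in the endothelial annotation than in the other types. Flt1, a VEGF receptor, had a median over libraries of 5184 CPM in endothelial nuclei, 378 CPM in pericytes, 106 CPM in microglia and at most 16.05 CPM in the remaining types. Cldn5, the main claudin of the barrier, had 1486 CPM in endothelial nuclei, 59.9 CPM in pericytes and 3.4 CPM in microglia. Pecam1, an adhesion molecule of endothelial junctions, had 475 CPM against 4.82 CPM in pericytes and 22.1 CPM in microglia. A Flt1 UMI was found in 99.3% of endothelial nuclei and in 1.04% of neurons, although the median neuron held 9105 UMIs and the median endothelial nucleus 3598. For Cldn5 the shares were 89.0% and 0.104%, and for Pecam1 76.2% and 1.16%. In pericytes the shares were 41.2% for Flt1, 6.92% for Cldn5 and 1.92% for Pecam1. These levels describe the annotation and were not tested, since the clusters were built from the same genes.

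**Figure D1:**
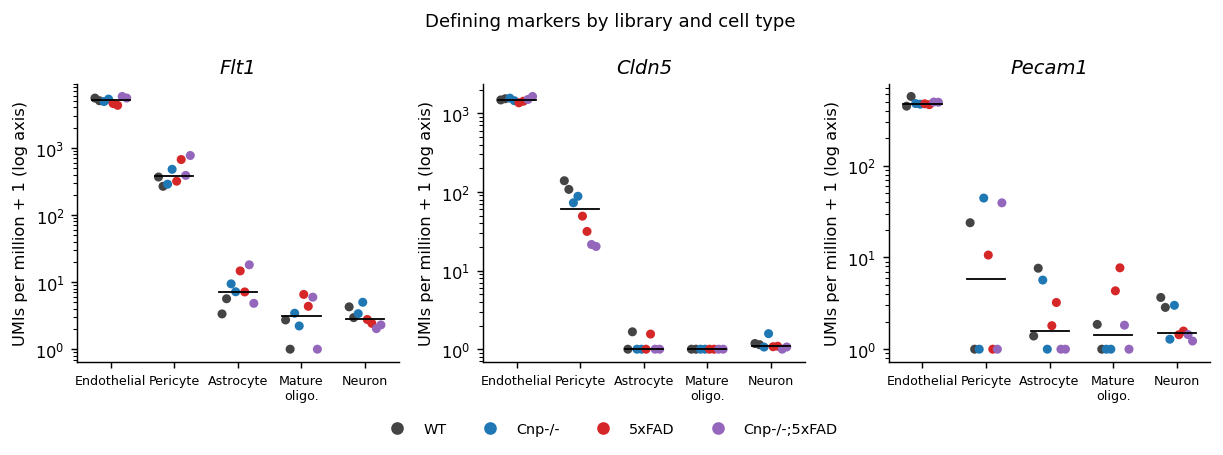
Levels of Flt1, Cldn5 and Pecam1 (CPM plus 1, log axis) in 5 of the annotated cell types. Each point is 1 of the 8 libraries, coloured by genotype, and each line is the median. Pericytes sit between endothelial nuclei and the other types for Flt1, at a median of 378 against 5184 CPM.

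Among genes with a mean of at least 50 CPM, the 20 with the highest level relative to any other annotated type were Srarp, Icam2, Ctla2a, Sox18, Wfdc1, Slc38a5, Klf4, AU021092, Robo4, Tie1, Clec14a, Grrp1, Rasip1, She, Dipk2b, Gm609, Tbx1, Tecrl, Edn1 and Clic5. Srarp at 99.6 CPM and Icam2, a leukocyte ligand, at 85.9 CPM had a median of 0 in each of the 7 other types. All 20 genes had a median of 0 in pericytes. Pericytes gave only 23002 to 103832 UMIs a library, so such a 0 does not show that a gene is absent there. After Icam2 the order rests on neuron medians of at most 0.515 CPM. Sox18, a transcription factor of vessel development, was at 173 CPM, and Tie1, an orphan receptor of the angiopoietin pathway, at 168 CPM. Robo4, a guidance receptor that stabilises vessels, was at 118 CPM, and Edn1, which encodes the vasoconstrictor endothelin-1, at 77.1 CPM. The 20 genes had medians between 52.9 and 238 CPM, and each was found in between 21.5% and 53.6% of endothelial nuclei. Flt1, Cldn5 and Pecam1 are not among them because pericytes or microglia also held their UMIs.

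ETS-family factors such as Erg bind a GGAA core and act in vascular gene control, and the promoters of Flt1 and Tie1 are shown for this reason, from 250 bases before to 50 bases after the start (RefSeq, GRCm38.p6, minus strand, chr5:147725962-147726261 and chr4:118489800-118490099). Capitals mark matches to AGGAAG or CGGAAG on either strand.
Flt1: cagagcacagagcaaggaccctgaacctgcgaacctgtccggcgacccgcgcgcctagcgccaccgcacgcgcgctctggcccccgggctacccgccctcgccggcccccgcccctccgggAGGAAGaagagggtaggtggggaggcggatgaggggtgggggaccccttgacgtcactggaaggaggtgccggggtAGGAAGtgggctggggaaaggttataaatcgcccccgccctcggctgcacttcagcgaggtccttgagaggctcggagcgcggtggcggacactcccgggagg
Tie1: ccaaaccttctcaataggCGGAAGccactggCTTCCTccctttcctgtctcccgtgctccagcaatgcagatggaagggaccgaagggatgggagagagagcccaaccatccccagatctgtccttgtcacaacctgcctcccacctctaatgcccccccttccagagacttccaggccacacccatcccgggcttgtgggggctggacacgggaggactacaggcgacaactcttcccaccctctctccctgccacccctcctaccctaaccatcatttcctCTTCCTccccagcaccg
The same window of Cldn5 held no match to either motif, which says only that these letters are not in it. The Flt1 window held 2 matches to AGGAAG, and the Tie1 window held 2 to AGGAAG and 1 to CGGAAG. Of the 20 identity genes, 15 matched the promoter table, and 8 of these (53.3%) held either motif, against 46.4% of 27025 promoters. The share among identity genes was thus near that of all promoters.

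The annotation was not uniform. It joined 3 of the deposited clusters, and these differed in how much they held of the marker lists of other cell types. Cluster 26 held 854 nuclei with a median of 2228 UMIs, and cluster 28 held 743 nuclei with a median of 5955 UMIs. Cluster 47 held 70 nuclei. In cluster 28, Pdgfrb, the PDGF receptor that defines pericytes, was found in 87.8% of nuclei, against 4.68% in cluster 26 and 87.7% in nuclei annotated as pericytes. Atp13a5, a brain pericyte gene, was found in 95.4% of cluster 28, 4.45% of cluster 26 and 95.8% of pericytes. Its level was 1224 CPM in cluster 28, 24.0 CPM in cluster 26 and 5842 CPM in pericytes. Counting Atp13a5, Pdgfrb, Abcc9, Kcnj8, Vtn and Notch3 together, 96.2% of cluster 28 nuclei held at least 5 UMIs of these 6 genes, against 2.22% of cluster 26 nuclei.

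Nuclei of cluster 28 nevertheless held many endothelial UMIs. The list of 18 endothelial identity genes had a median of 103 UMIs per nucleus in cluster 28, 47 in cluster 26 and 2 in pericytes. Most nuclei of cluster 28 therefore carried defining genes of both cell types, and the label endothelial covers only part of what they hold. Whether they are 2 cells caught together or single nuclei was not tested. Cluster 47 held Mbp, a myelin gene, at 1633 CPM and Gpc5, an astrocyte gene, at 2985 CPM, while its endothelial identity list summed to 5442 CPM against 22378 CPM in cluster 26. A Cldn5 UMI was found in 87.2% of cluster 26 nuclei and in 21.4% of cluster 47 nuclei. Of the 70 nuclei of cluster 47, 61 held more UMIs of the lists for other cell types than of the identity list. Over all 3 clusters this was so for 296 nuclei.

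**Figure D2:**
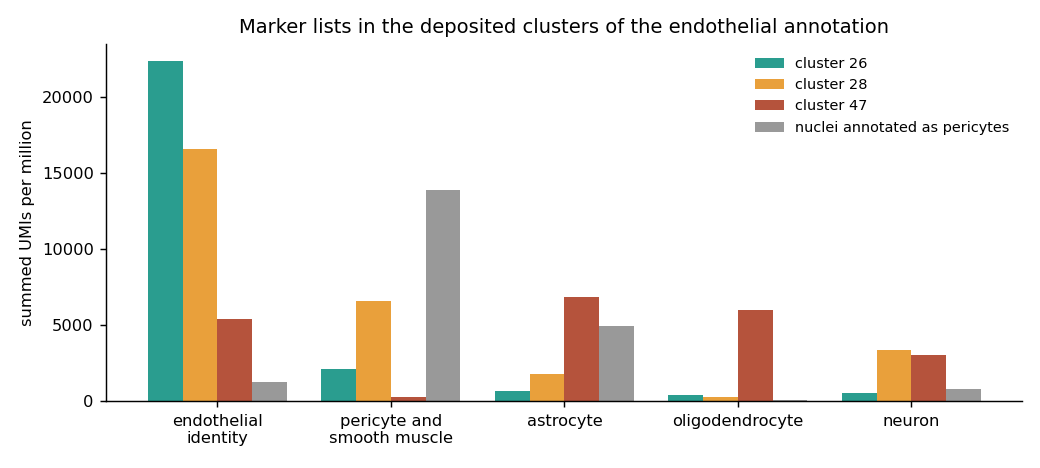
Summed level of 5 marker lists (CPM) in the 3 deposited clusters that make up the endothelial annotation and in pericytes. Each bar pools the nuclei of 8 libraries. The pericyte list reaches 6571 CPM in cluster 28 and 2160 CPM in cluster 26, where Rgs5 alone gives 1940 CPM.

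The 3 clusters were found in all libraries, in unequal shares. Cluster 28 made up 38.5% to 52.7% of endothelial nuclei with Cnp loss (mean 47.6%) and 39.1% to 45.4% without (mean 41.6%). Cluster 47 made up 3.76% to 7.29% with 5xFAD (mean 5.32%) and 1.68% to 5.05% without (mean 3.01%). The ranges overlapped, and the part of these shares in the comparisons below was not tested. Neuronal RNA was concentrated in few nuclei. In the summed profiles the neuron list ranged from 994 to 5286 CPM, yet 102 endothelial nuclei (6.12%) with at least 10 neuron-list UMIs held 98.5% of it. Those nuclei had a median of 11340 UMIs, against 3399 in the rest. In each library the 10 richest nuclei held between 80.6% and 99.7% of the neuron-list UMIs. Counts for Cnp loss, 5xFAD and the interaction are therefore also given without these 102 nuclei and for cluster 26 alone, both chosen after seeing the data.

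Genes of the barrier were found in every library. Slco1a4, an organic anion carrier, ranged from 2829 to 3565 CPM over the 8 libraries, and Slco1c1, which carries thyroid hormone, from 1619 to 1842 CPM. Slc2a1, the glucose transporter of the barrier, ranged from 807 to 1301 CPM. Among efflux pumps, Abcb1a (P-glycoprotein) ranged from 832 to 1054 CPM and Abcg2 from 604 to 1237 CPM. Tjp1, a scaffold of tight junctions, ranged from 1373 to 1794 CPM. Lef1, a transcription factor of Wnt signalling, ranged from 956 to 1538 CPM, and Apcdd1, a Wnt target, from 460 to 608 CPM. The junction list summed to between 6533 and 7625 CPM, influx transporters to between 11199 and 13300 CPM and ABC efflux transporters to between 2171 and 3043 CPM. The highest library of each list was thus less than 1.5 times the lowest.

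Zonation genes were present for each vessel segment. The capillary list, led by Spock2, Slco1c1, Cxcl12 and Hmcn1, summed to between 8299 and 10226 CPM. The arterial list, with Sox17 at 233 to 346 CPM and Bmx, a kinase of arterial endothelium named after its values were seen, at 29.1 to 76.2 CPM, summed to between 1792 and 2496 CPM. The venous list, with Vwf at 73.1 to 154 CPM and Nr2f2, a transcription factor of venous identity, at 114 to 159 CPM, summed to between 751 and 1095 CPM. Nr2f2 had a median of 428 CPM in pericytes and 49.3 CPM in cluster 26. At least 3 UMIs of the arterial list were found in 1331 nuclei, of the venous list in 816 and of both in 724, so these lists did not divide the nuclei into separate segments. Mgp, an inhibitor of calcification in arteries, was at 341 CPM in WT replicate 2 and at 69.0 to 158 CPM in the other libraries.

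Loss of Cnp was compared over the 4 libraries that lack it and the 4 that carry it. No gene rose and 5 fell (0.0425% of 11754 genes tested, from the quasi-likelihood test of edgeR, adjusted by Benjamini and Hochberg). They were Meg3, Dpp6, Pde1a, Celf4 and A830018L16Rik. The count was 42 with DESeq2, all lower, and 458 with no filter on low counts, of which 20 were higher. It was 0 with the same number of nuclei per library, drawn once at random, and 0 without nuclei richer in UMIs of other cell types. All 5 are genes of neurons or oligodendrocyte precursors, and none is an endothelial gene.

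Meg3, an imprinted long non-coding RNA abundant in neurons (chr12:109541001-109571726, GRCm38), was at 945 and 768 CPM in WT, 501 and 588 CPM in Cnp-/-, 1509 and 1818 CPM in 5xFAD and 299.8 and 439.9 CPM in Cnp-/-;5xFAD. Both groups of 4 libraries were apart, with the 5xFAD libraries highest. Its log2 change was -1.40 (SE 0.14, adjusted p = 0.0254).

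Dpp6, an auxiliary subunit of potassium channels (chr5:26817203-27727505), was at 157 and 132 CPM in WT, 82.8 and 77.8 CPM in Cnp-/-, 129 and 214 CPM in 5xFAD and 25.9 and 35.4 CPM in Cnp-/-;5xFAD, a log2 change of -1.65 (SE 0.19, adjusted p = 0.0254). Celf4, an RNA-binding protein of neurons, was at 87.2 and 88.6 CPM in WT, 77.01 and 81.3 CPM in Cnp-/-, 169.8 and 151 CPM in 5xFAD and 38.8 and 27.7 CPM in Cnp-/-;5xFAD. The gap between WT and Cnp-/- was narrow for this gene. Pde1a, a calcium-dependent phosphodiesterase (chr2:79834453-80129458), had 62.7 and 77.7 CPM in WT and 61.6 and 67.1 CPM in Cnp-/-, and these overlapped, while 5xFAD had 201 and 169 CPM and Cnp-/-;5xFAD had 23.7 and 32.4 CPM. A830018L16Rik (chr1:11414105-11975901) ranged from 56.3 to 92.7 CPM with Cnp and from 17.3 to 35.6 CPM without it. Log2 changes were -1.21 for Celf4, -1.39 for Pde1a and -1.37 for A830018L16Rik, with adjusted p-values of 0.0254, 0.0254 and 0.0283. Pde1a turned to 0.42 without the nuclei richer in UMIs of other cell types.

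The UMIs of these genes came from few nuclei. The 102 nuclei with at least 10 neuron-list UMIs held 98.5% of the Meg3 UMIs, 98.2% of those of Dpp6, 98.1% of those of Celf4, 99.3% of those of A830018L16Rik and 89.8% of those of Pde1a. Meg3 is itself on the neuron list. In neurons the medians were 8195 CPM for Meg3 and 735 CPM for Pde1a. Without the 102 nuclei, Meg3 was between 0 and 56.3 CPM in every library and no gene was called (10401 tested, 374 at an unadjusted p under 0.05). The log2 change of Meg3 was then -1.22 (SE 0.74, interval -2.90 to 0.46, adjusted p = 1.00), about as large as with all nuclei but with a wide interval. The part of the neuron-rich nuclei in the calls was not tested. The neuron list had 9 of 9 members lower with Cnp loss, with a median log2 change of -0.91 against 0.01 over all genes tested. Its summed level was 994 to 2253 CPM with Cnp loss and 1398 to 5286 CPM without it, and these ranges overlapped. In cluster 26 alone no gene was called either (7272 tested, 288 at an unadjusted p under 0.05), and Meg3 differed by -0.19. Cluster 26 held 854 of the 1667 nuclei, with a median of 2228 UMIs against 3598 over all of them. Recovery was not simulated for it, so a count of 0 there, here and below, does not show that effects were absent.

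**Figure D3:**
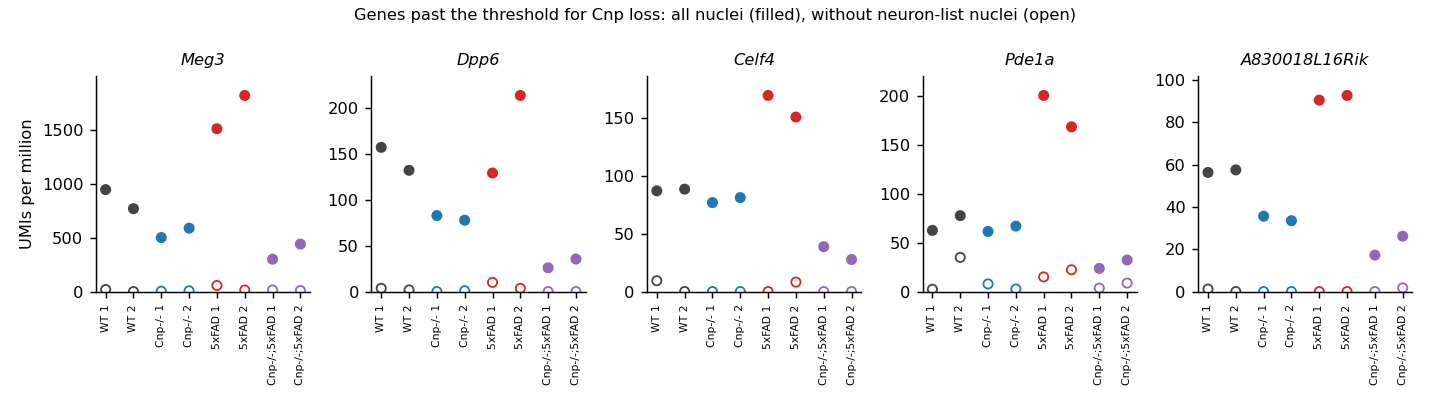
Levels (CPM) of the 5 genes past the threshold for Cnp loss, 1 point for each of the 8 libraries, coloured by genotype. Filled points are all endothelial nuclei and open points leave out the 102 nuclei with at least 10 neuron-list UMIs. Open points for Meg3 do not exceed 56.3 CPM, against 1818 CPM for filled ones. Meg3 is on the neuron list, so its open points were bound to be low.

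The count also rested on single libraries. It was 13 without WT replicate 1, of which 3 were higher, 97 without WT replicate 2, of which 7 were higher, 1 without 5xFAD replicate 1 or Cnp-/-;5xFAD replicate 2, and 0 without Cnp-/- replicate 1, Cnp-/- replicate 2, 5xFAD replicate 2 or Cnp-/-;5xFAD replicate 1. In simulated libraries of this design, the test recovered 20.6% of 1.5-fold, 52.3% of 2-fold and 89.6% of 4-fold changes for Cnp loss, with 9 false calls among unchanged genes.

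No member of the 21 endothelial pathway and zonation lists passed the threshold with Cnp loss, and list medians ran from -0.028 for VEGF and angiopoietin signalling to 0.22 for interferon response and MHC. The 18 identity genes had a median log2 change of 0.11, which was 0.01 without the neuron-rich nuclei. Of the 20 junction genes tested, 15 were higher with Cnp loss, at a median of 0.10. The lowest, named after its value was seen, was Cdh13, a cadherin, at -1.06 (adjusted p = 0.269). Without the neuron-rich nuclei the junction median was 0.030 and Cdh13 was at -0.63. Flt1 differed by 0.16 (95% interval 0.02 to 0.31, adjusted p = 0.529) and Cldn5 by 0.09 (interval -0.07 to 0.26, adjusted p = 0.833). Pecam1 differed by -0.0023 (interval -0.23 to 0.23, adjusted p = 0.999). Nuclei entered the annotation through clusters built on these markers among other genes, so these values describe the selected nuclei and do not show that the markers were stable.

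Genes of the interferon response and MHC were mostly higher with Cnp loss without passing the test. Of 33 tested, 31 had a positive log2 change, against 6033 of 11754 genes, with a median of 0.22. Without the neuron-rich nuclei 30 of 33 did, at a median of 0.16. With all nuclei, other endothelial lists also leaned this way, with 14 of 16 for leukocyte adhesion, 10 of 11 for venous and 10 of 12 for capillary genes. The arterial list had 7 of 15 positive and the VEGF and angiopoietin list 5 of 13. Ifit1, an antiviral effector, named after its values were seen, was at 24.5 and 18.7 CPM in WT, 64.5 and 44.9 CPM in Cnp-/-, 45.3 and 32.7 CPM in 5xFAD and 65.8 and 70.9 CPM in Cnp-/-;5xFAD. The groups overlapped only between Cnp-/- replicate 2 and 5xFAD replicate 1. Its log2 change was 1.06 (SE 0.19, adjusted p = 0.175). The summed interferon and MHC list did not separate the groups, at 4766 to 5548 CPM with Cnp loss and 3976 to 6024 CPM without. WT replicate 2 was the highest of all libraries. The microglia list summed to 164 to 283 CPM with Cnp loss and 116 to 213 CPM without, and 6 of its 8 tested members were higher. Its part in these values was not tested.

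For 5xFAD, the 4 libraries with the transgenes were compared with the 4 without, and no gene passed the threshold (0.0% of 11754). At an unadjusted p under 0.05 there were 614 genes, and DESeq2 called 2, Ntng1 and Trpm3, both lower. With no filter on low counts 135 genes were called, 90 higher and 45 lower. The count was also 0 without the neuron-rich nuclei (546 at an unadjusted p under 0.05) and in cluster 26 alone (374). The 10 genes with the smallest p were H2-Q7, Abcc9, Trpm3, Cstf2, Ralgapa2, Runx1, Far1, Aspa, A330049N07Rik and Zfp280c, none of which passed.

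H2-Q7, a class Ib MHC gene, was highest in endothelial nuclei of all annotated types. It was at 12.7 and 12.4 CPM in WT, 20.2 and 23.5 CPM in Cnp-/-, 34.9 and 40.6 CPM in 5xFAD and 56.1 and 43.9 CPM in Cnp-/-;5xFAD. Each library with 5xFAD lay above each one without. H2-Q7 gave 268 UMIs in 213 nuclei over all libraries, so its lowest levels rest on few molecules. The log2 difference was 1.37 (SE 0.20, adjusted p = 0.726), 1.45 without the neuron-rich nuclei (adjusted p = 0.263) and 1.05 in cluster 26 alone (adjusted p = 0.915). Reads of near-identical MHC genes can be split between copies, so its level is uncertain. Of all 11754 genes, 3.25% had no overlap between the 4 libraries with 5xFAD and the 4 without, and 3.77% for Cnp loss.

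Abcc9, a potassium channel subunit of pericytes, was at 225 and 302 CPM in WT, 233 and 251 CPM in Cnp-/-, 149 and 125 CPM in 5xFAD and 175 and 167 CPM in Cnp-/-;5xFAD, a log2 difference of -0.73 (SE 0.13, adjusted p = 0.908). In cluster 26 it was between 9.52 and 28.1 CPM in every library. The pericyte and smooth muscle list summed to 4463 to 4914 CPM with 5xFAD and 5120 to 7201 CPM without, and its 10 members had a median of -0.16, against 0.00 over all genes. Rgs5, a member, was at 1940 CPM in cluster 26, 2685 CPM in cluster 28 and 1180 CPM in pericytes. The sum therefore does not measure pericyte RNA alone. Pdgfrb was at 227 to 320 CPM over the libraries and no defining pericyte gene was at 0. The part of this RNA in the difference of Abcc9 was not tested.

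Runx1, a transcription factor of blood and microglia, was at 3.63 and 6.22 CPM in WT, 17.3 and 17.8 CPM in Cnp-/-, 32.1 and 27.4 CPM in 5xFAD and 18.3 and 21.6 CPM in Cnp-/-;5xFAD, and its median in microglia was 981 CPM. Over all libraries it gave 161 UMIs in 82 endothelial nuclei, so its lowest levels rest on few molecules. Aspa, an oligodendrocyte enzyme, was at 31.8 to 42.4 CPM with 5xFAD and 7.77 to 18.3 CPM without, from 221 UMIs in 99 nuclei. The oligodendrocyte list had 8 of 9 tested members higher with 5xFAD, at a median of 0.69, and summed to 514 to 711 CPM with 5xFAD and 372 to 612 CPM without. All 8 tested microglial genes were higher, at a median of 0.92, and the list summed to 176 to 283 CPM against 116 to 200 CPM. The part of these cells' RNA was not tested. Log2 differences were 1.41 for Runx1 and 1.33 for Aspa, both with an adjusted p of 0.908.

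The other genes of the 10 each had their highest median in another annotated type. Trpm3, a cation channel, had a log2 difference of -1.14 and Cstf2, a polyadenylation factor, of -1.48. Ralgapa2, which acts on Ral GTPases, differed by 0.84, Far1, an enzyme of ether lipid synthesis, by 1.16, A330049N07Rik by 1.82 and Zfp280c by 0.76, each with an adjusted p of 0.908. Ralgapa2 was at 98.6 to 165 CPM with 5xFAD and 46.6 to 80.9 CPM without.

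No member of the 21 endothelial lists passed the threshold under 5xFAD. Medians were -0.05 for 18 identity genes, -0.03 for 20 junction genes, -0.03 for 25 influx transporters, -0.08 for 8 ABC efflux transporters and -0.07 for 16 genes of amyloid clearance. Flt1 differed by -0.06 (interval -0.20 to 0.09), Cldn5 by -0.03 (interval -0.20 to 0.13) and Pecam1 by -0.03 (interval -0.26 to 0.19), again among nuclei selected through such markers. Slc2a1 differed by -0.32 and Abcg2 by -0.36, both with an adjusted p of 0.908.

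The glucocorticoid-responsive list had the lowest median of the pathway lists, -0.31 over 12 genes, of which 2 were higher with 5xFAD. Its summed level overlapped between the groups, at 894 to 1322 CPM with 5xFAD and 1052 to 1535 CPM without. Zbtb16 differed by -1.14 and ranged from 60.1 to 373 CPM over the libraries. Of genes named after their values were seen, Sult1a1, a sulfotransferase, differed by -1.10 and Cdkn1a, a cell cycle inhibitor, by -0.76, each with an adjusted p of 0.908. Klf2, the transcription factor of laminar flow, differed by -0.50 and ranged from 458 to 970 CPM. Of 33 interferon and MHC genes, 21 were higher, at a median of 0.09. Nlrc5, the activator of MHC class I genes, also named after its value was seen, differed by 1.14 (adjusted p = 0.908).

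Without WT replicate 1 the count for 5xFAD became 142 genes, 71 higher and 71 lower, and it was 0 without any other library.

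**Figure D4:**
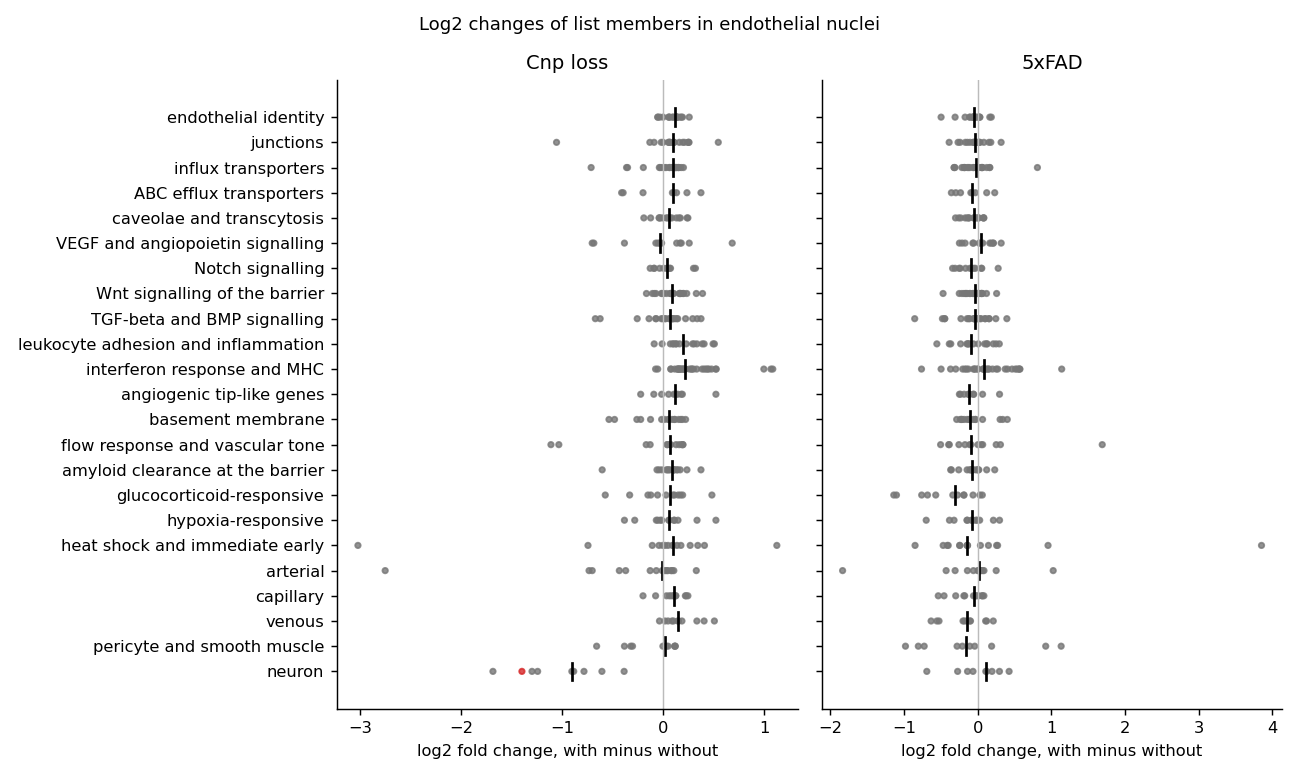
Log2 change of each list member for Cnp loss and for 5xFAD in endothelial nuclei. Each point is a gene, red where it passed the threshold, and the black line is the list's median. The neuron list lies left of 0 for Cnp loss, at a median of -0.91, and the medians of the 21 endothelial lists lie between -0.31 and 0.22 in both panels, while single genes reach further.

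The interaction asks whether Cnp loss changes more with 5xFAD than without. No gene passed the threshold (0.0% of 11754, 690 at an unadjusted p under 0.05). DESeq2 called 35, all negative. With no filter on low counts 297 were called, of which 17 were positive, and with the replicate block 1 was called. The 6 genes with the smallest p were Pde1a, Schip1, Dlgap2, Celf4, Cntn1 and Rbfox1, the first 4 with an adjusted p of 0.0693 and the last 2 with 0.13. Dlgap2, a postsynaptic scaffold, was at 124 and 109 CPM in WT, 124 and 158 CPM in Cnp-/-, 264 and 279 CPM in 5xFAD and 56.1 and 80.1 CPM in Cnp-/-;5xFAD. The nuclei with at least 10 neuron-list UMIs held 99.4% of its UMIs and at least 89.8% of those of each of the 6 genes. Without them no gene was called (326 at an unadjusted p under 0.05), nor in cluster 26 alone (273). Pde1a, Schip1 and Rbfox1 then turned in direction, to 0.26, 0.24 and 1.09 without the neuron-rich nuclei. All 18 identity genes had a positive interaction, with a median of 0.31, against 0.02 over all genes, and none passed. Without the neuron-rich nuclei 16 of 18 were positive, at a median of 0.19. Nuclei were selected through such markers, so these values describe the selected nuclei. With all nuclei, 0 of 9 neuron, 0 of 8 astrocyte, 9 of 9 oligodendrocyte and 7 of 10 pericyte and smooth muscle genes were positive. The identity list was lowest in the 5xFAD libraries, at 16065 and 15896 CPM, where the neuron list was highest, at 3721 and 5286 CPM. The part of other cells' RNA was not tested. The count was 112 without WT replicate 1, 3 without WT replicate 2, 1 without Cnp-/- replicate 1 and 0 without each other library.

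Effects in endothelial nuclei were set against those in pericytes and astrocytes of the same libraries. Against astrocytes no gene differed for Cnp loss or for 5xFAD (0.0% of 13620 each). DESeq2 called 0 and 1, the latter Sox4. Simulated for Cnp loss only, this comparison recovered 31.3% of 4-fold and 3.03% of 2-fold differences, so most differences of these sizes would be missed. Against pericytes, 5 genes differed for Cnp loss (0.0499% of 10017), all more positive in endothelial nuclei, and 75 for 5xFAD (0.749%), of which 73 were more positive. The 5 were Kirrel3, Nrxn3, Kcnd2, Negr1 and Rgs7, named after their values were seen. Nrxn3 is itself on the neuron list.

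The libraries held only 19 to 61 pericytes, and the neuron list in them summed to 2180 and 4186 CPM in WT and to between 0 and 980 CPM in the other 6 libraries. Its part in these differences was not tested. Without nuclei with at least 10 neuron-list UMIs in both types, neither comparison called a gene. On all nuclei DESeq2 called 0 in both, with 157 and 281 genes at an unadjusted p under 0.05. Simulated for Cnp loss, this comparison recovered 11.9% of 4-fold and 0% of 2-fold differences. For Cnp loss the count was 21 without WT replicate 1, 0 without Cnp-/- replicate 1, 2 without Cnp-/- replicate 2, 3 without 5xFAD replicate 2 and 30 without Cnp-/-;5xFAD replicate 1. For 5xFAD it was 43 without WT replicate 2, 8 without 5xFAD replicate 1, 36 without 5xFAD replicate 2 and 134 without Cnp-/-;5xFAD replicate 1.

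The share of endothelial nuclei was 2.44% and 1.75% in WT, 2.47% and 3.16% in Cnp-/-, 2.58% and 2.84% in 5xFAD and 2.66% and 3.41% in Cnp-/-;5xFAD. The groups overlapped, with WT replicate 2 lowest. With Cnp loss the mean was 2.93% ± 0.434 (SD, n = 4) against 2.40% ± 0.465 (SD, n = 4) without it (two-sided exact permutation p = 0.171, adjusted over 2 comparisons 0.286). With 5xFAD it was 2.87% ± 0.373 (SD, n = 4) against 2.45% ± 0.577 (SD, n = 4; exact permutation p = 0.286, adjusted 0.286). The smallest p this design allows is 0.0286. Per 100 endothelial and pericyte nuclei the order turned for 5xFAD, with 82.9 ± 4.99 against 89.9 ± 3.601 (SD, n = 4 each, exact permutation p = 0.0857), and pericytes numbered 28 to 61 a library with 5xFAD and 19 to 22 without. The 743 nuclei of cluster 28, most of which also held pericyte genes, counted as endothelial here, so this ratio depends on the annotation.

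**Figure D5:**
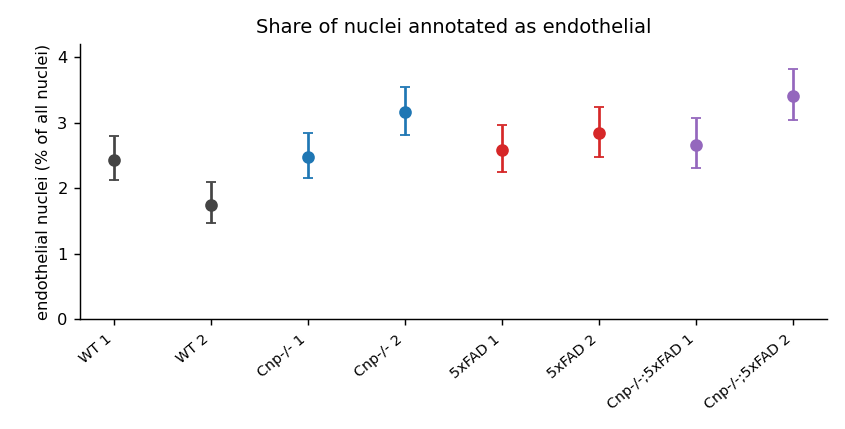
Share of all nuclei annotated as endothelial in each of the 8 libraries, with 95% Wilson intervals that cover counting error only. WT replicate 2 is lowest at 1.75% and Cnp-/-;5xFAD replicate 2 highest at 3.41%.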

How the data were processed

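Nuclei of 8 libraries were sequenced by the authors with a droplet assay. They aligned reads with Cell Ranger 6.1.2 to mm10, removed ambient transcripts with CellBender, filtered nuclei on detected genes and UMIs and clustered them with Seurat. Intron counting and doublet treatment are not given in the sources used here. The deposited values are UMI counts per gene and nucleus without normalization, with a cell type, a cluster number and the percent of mitochondrial UMIs for each nucleus, as deposited by the authors. The deposited table of microglia was not used here. Sequences and positions come from RefSeq and GENCODE for GRCm38.

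Counts were summed per library over endothelial nuclei, pericytes and astrocytes, and totals were checked against the deposited UMIs per nucleus. Genes were filtered by filterByExpr, scaled by TMM and tested two-sided with edgeR 4.0.16 (glmQLFit, glmQLFTest) in R 4.3.3, with 1 mean per genotype and a Benjamini-Hochberg threshold of 0.05. Differences between cell types took the library as a term. Shares were compared by exact permutation, with Wilson intervals of 95%. The models were tested on simulated data with 200 changed genes. DESeq2 1.42.0, other filters, other sets of nuclei, the replicate number as a block and each library left out were alternatives. The members and gene lists were chosen with earlier results of these data known.

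Named genes are those past the threshold, the 10 of smallest p where fewer than 5 passed, the 6 of smallest p for the interaction, up to 4 of highest level in each list, and 20 identity genes. No doublet caller was run.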

Additional observations from a re-analysis of the deposited data

Results flagged for a closer look

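Effects of the genotypes in endothelial nuclei and in pericytes differed in 5 genes for Cnp loss (0.0499% of 10017) and in 75 genes for 5xFAD (0.749%), by a test of the difference itself. Of these, 2 of the 5 and 46 of the 75 had their highest median in neurons. The share over all 10017 genes was not counted, so these counts do not show an excess of neuronal genes. DESeq2 called 0 in both comparisons. Neither set remained when nuclei with at least 10 neuron-list UMIs were left out of both cell types, with 0 genes in each comparison.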

How the results depend on the processing

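Counts of genes for Cnp loss, 5xFAD and the interaction (5, 0 and 0) became 458, 135 and 297 with no filter on low counts and 42, 2 and 35 with DESeq2. With the same number of nuclei per library (119, drawn once at random) the count for Cnp loss was 0. It was also 0 without nuclei richer in UMIs of other cell types, without neuron-rich nuclei and in cluster 26 alone. The cause was not tested for the filter or for DESeq2. With a replicate block the counts were 7, 0 and 1, the last Gm32647. No pair of groups had deviations of same-numbered libraries that correlated above 0.0479, so the numbers were taken as names only. With 1 library left out the counts ranged from 0 to 97 for Cnp loss, 0 to 142 for 5xFAD and 0 to 112 for the interaction, a lone library being assumed to vary like the others. Against pericytes they ranged from 0 to 30 for Cnp loss and from 8 to 134 for 5xFAD, and both were 0 with DESeq2 and 0 without neuron-rich nuclei. Against astrocytes DESeq2 called 1 gene for 5xFAD and 0 for Cnp loss.

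The share of endothelial nuclei differed by 0.525 percentage points for Cnp loss and 0.418 for 5xFAD. The latter turned to -1.09 with nuclei other than neurons as the denominator and to -6.94 per 100 endothelial and pericyte nuclei. With 1 library left out the differences ranged from 0.308 to 0.676 and from 0.183 to 0.653. Relabelling within replicate numbers (the replicate block) gave exact p-values of 0.111 and 0.333.

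Some log2 changes turned in sign. For Cnp loss, Pde1a was at 0.42 and Cldn5 at -0.040 without nuclei richer in other types, and Cldn5 at -0.057 in cluster 26. Pecam1 ranged from -0.092 to 0.10 with 1 library left out. For 5xFAD, Cldn5 was at 0.022 without nuclei richer in other types, 0.0042 without neuron-rich nuclei and 0.017 in cluster 26, and Pecam1 ranged from -0.13 to 0.048 with 1 library left out. For the interaction, Pde1a was at 0.26, Schip1 at 0.24 and Rbfox1 at 1.09 without neuron-rich nuclei. Smaller changes were recovered less often in simulated libraries of this design, and the part of depth in this was not tested.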

Other observations

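Haemoglobin transcripts, which red blood cells hold in abundance, varied between libraries, and their source was not tested. The blood list summed to between 393 and 2572 CPM in endothelial nuclei, and its range with Cnp loss, from 1109 CPM, overlapped that without, up to 2377 CPM in WT replicate 2. All 6 tested genes were positive in each comparison, at a median log2 value of 0.59 for Cnp loss, 0.34 for 5xFAD and 1.23 for the interaction, none past the threshold. The highest member for Cnp loss and for 5xFAD was Ptprc, not a haemoglobin gene, at 0.72 and 1.33. Hbb-bs was lowest for 5xFAD, at 0.067. Without the neuron-rich nuclei 4 of 5 were positive for the interaction, with Ptprc at -1.16. Hbb-bs, a beta-globin gene, was at 188 to 1334 CPM, and it was at 1402 CPM in cluster 26, 470 CPM in cluster 28 and 44.0 CPM in cluster 47. At least 1 Hbb-bs UMI was found in 21.8% of endothelial nuclei and in 0.860% of neurons.

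Genes of the basement membrane were also present. Sparc ranged from 390 to 564 CPM, Fn1 from 383 to 503 CPM and Col4a1 from 229 to 309 CPM, and none passed the threshold in any comparison of endothelial nuclei.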
